A study of Rattus norvegicus with 20 samples.

Results

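The tetraspanin genes Cd9, Cd63, Cd81, Cd82 and Cd151 were followed through rat progenitor cultures and their treated derivatives. All probe sets annotated to these symbols were taken, which gave 8 probe sets of 5 genes among 8740 probe sets and 4736 genes on the array. Cd9, Cd81 and Cd82 each had 2 probe sets, called a and b here, that come from the same transcript record and are therefore not independent of each other. Cd63 and Cd151 had 1 each. All 8 members were tested, since no filter on low values was applied, and 0 probe sets that carry several symbols included a member.

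RNA of 4 groups was hybridised to 20 Affymetrix rat arrays, which give a linear intensity for each probe set. HD are progenitors at high density (6 arrays, 3 cultures), and LD are CCg progenitors at low density (4 arrays, 3 cultures). FBS are LD cells treated with FBS, commonly fetal bovine serum, to obtain astrocytes (6 arrays, 4 cultures). RA/Fsk are LD cells treated with RA/Fsk, commonly retinoic acid and forskolin, to obtain neurons (4 arrays, 4 cultures). Within a group, arrays labelled with the same number were averaged into 1 sample, called a culture here. Nothing in the labels says that these samples were grown separately, and the p-values cover only the spread between them, which may be technical. The labels do not expand CCg and give no strain, age, dose or duration. They mention CCg for LD and for the cells derived from LD but not for HD, so density and CCg cannot be told apart in a comparison of HD with LD.

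Tetraspanins are small proteins that cross the membrane several times and gather other membrane proteins into lateral complexes. They have few ligands of their own and act mainly through their partners, among them integrins, immunoglobulin superfamily proteins, membrane proteases and growth factor precursors. Cd9 and Cd81 are close relatives at the cell surface, share the partners Igsf8 and Ptgfrn, and are found on several kinds of glia. Cd151 binds laminin-binding integrins, Cd82 is known as a suppressor of metastasis, and Cd63 resides mostly in late endosomes, lysosomes and secreted exosomes.

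The 250 bases before the annotated start of 4 of the 5 genes were available from RefSeq for assembly GRCr8, and Cd82 had no entry. Each window is written 5′ to 3′ on the gene's strand, and a link between these windows and the differences with FBS was not tested. Capitals mark the letters GGGCGG, the core of a GC box. The Cd9 window lies at chr4:159975359-159975608 on the minus strand, the Cd63 window at chr7:1921894-1922143 on the plus strand, the Cd81 window at chr1:207665047-207665296 on the plus strand and the Cd151 window at chr1:205994050-205994299 on the plus strand.
Cd9: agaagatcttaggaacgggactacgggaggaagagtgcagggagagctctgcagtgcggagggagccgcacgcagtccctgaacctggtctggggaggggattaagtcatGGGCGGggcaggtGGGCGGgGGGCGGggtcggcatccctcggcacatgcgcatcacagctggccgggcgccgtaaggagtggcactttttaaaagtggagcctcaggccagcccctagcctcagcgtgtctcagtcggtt
Cd63: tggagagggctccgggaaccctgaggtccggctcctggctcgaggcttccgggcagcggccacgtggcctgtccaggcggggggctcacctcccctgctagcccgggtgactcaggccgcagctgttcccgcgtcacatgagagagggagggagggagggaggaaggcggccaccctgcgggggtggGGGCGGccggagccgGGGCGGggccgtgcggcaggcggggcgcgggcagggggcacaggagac
Cd81: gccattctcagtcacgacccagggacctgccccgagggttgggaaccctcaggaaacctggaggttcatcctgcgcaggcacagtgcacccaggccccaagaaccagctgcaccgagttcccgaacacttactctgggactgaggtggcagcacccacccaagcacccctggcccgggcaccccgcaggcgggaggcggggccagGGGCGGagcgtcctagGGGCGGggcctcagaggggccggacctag
Cd151: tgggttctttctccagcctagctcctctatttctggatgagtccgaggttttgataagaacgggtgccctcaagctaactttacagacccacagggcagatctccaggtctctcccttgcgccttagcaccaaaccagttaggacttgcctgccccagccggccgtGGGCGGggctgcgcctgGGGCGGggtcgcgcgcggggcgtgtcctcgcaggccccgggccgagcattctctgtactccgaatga
All 4 windows held GGGCGG on one of the strands, 3 times for Cd9 and 2 times for each of the other genes, while 30.5% of 33469 windows of the same length held it at least once and 14.8% at least 2 times. The G and C content was 64.0% for Cd9, 76.4% for Cd63, 69.2% for Cd81 and 62.0% for Cd151, above the median of 51.2% over all windows. The Cd63 window also held the E-box CACGTG, which 5.59% of windows hold and the other 3 did not. TATAAA, TGACGTCA and AGGTCA were found in 0 of the 4 windows and in 12.9%, 1.59% and 14.1% of all windows. Both strands were read for each motif, and none of these motifs contains another. The 33469 windows were not matched to the 4 for G and C content, on which the frequency of GGGCGG depends. These matches describe the letters in the window and not binding.

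With FBS all 5 tetraspanins rose, and with RA/Fsk 3 of the 5 rose, Cd9 most in both. Cd9 stood 7.28-fold higher in FBS than in LD and 3.83-fold higher in RA/Fsk than in LD. Cd82 rose 3.76-fold, Cd151 3.02-fold and Cd81 1.87-fold with FBS, whereas Cd63 rose 1.56-fold with FBS and 1.65-fold with RA/Fsk. Folds are ratios on the scale of log2(intensity + 4.99), which understates the change of dim probe sets. Differences below are in log2 units, the group named first minus the other, each with a standard error (SE). The test was limma's moderated test with Benjamini-Hochberg adjustment over 8740 probe sets, a result passed where the adjusted p was under 0.05, and a gene is said to have risen or fallen where it passed. As these are bulk cultures, fewer cells of a type and less RNA per cell cannot be told apart.

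For FBS against LD, 8 of the 8 member probe sets rose, where 13.2% of all probe sets rose and 12.3% fell, and FBS and LD cultures did not overlap in any of the 8, against 35.4% of all probe sets. For RA/Fsk against LD, 4 rose and 0 fell, against 4.71% and 3.54% of all probe sets, and 4 did not overlap, against 15.5%. Between the treatments, 6 of the 8 fell in RA/Fsk relative to FBS and 0 rose, against 10.1% and 8.27% of all probe sets. The cultures did not overlap for 6 there, against 21.5%, which include probe set b of Cd81 in place of probe set b of Cd82. FBS against HD gave 7 rises and 0 falls, where 11.3% of all probe sets rose and 9.7% fell, and 7 without overlap, against 32.4%. RA/Fsk against HD gave 4 rises and 0 falls, where 4.85% rose and 5.32% fell, and 4 without overlap, against 18.3%. The comparisons with LD share the same 3 LD cultures and those with HD the same 3 HD cultures, so their results are not independent of one another. Over the 5 genes, each taken by its brighter probe set, the median difference was 1.59 between FBS and LD, 0.72 between RA/Fsk and LD and -0.72 between RA/Fsk and FBS. Over all probe sets these medians were -0.09, -0.05 and 0.06. The split of all calls depended on the scaling: with arrays centred on their medians, 984 rises and 848 falls became 722 and 1138 for FBS against HD, and 723 rises and 883 falls became 852 and 688 for RA/Fsk against FBS.

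**Figure D1:**
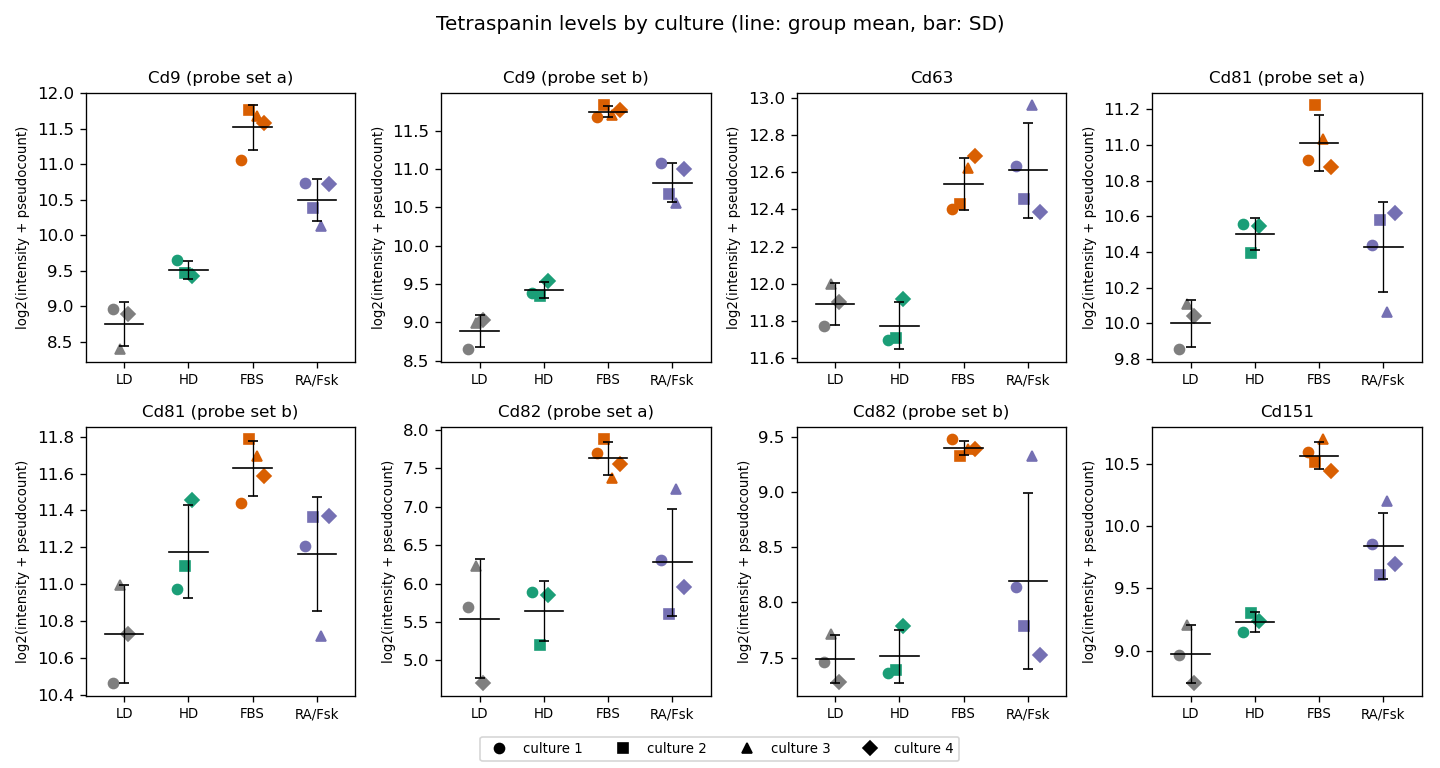
Level of each member probe set in each of the 14 cultures, as log2(intensity + 4.99) on the vertical axis, with the group mean as a line and the SD as a bar. Cultures of a group are set by number and marker shape. The FBS cultures lie above all LD cultures in the 8 panels, the FBS and RA/Fsk cultures overlap for Cd63, and RA/Fsk culture 3 is the lowest of its group for Cd9 and Cd81 and the highest for Cd63, Cd82 and Cd151.

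Cd9, a partner of Igsf8 and Ptgfrn that is also needed on the egg for fusion with sperm, had intensities of 395.5, 503.2 and 515.8 in LD cultures 1, 3 and 4 by probe set b. HD cultures 1, 2 and 4 had 662.0, 644.8 and 763.4. FBS cultures 1 to 4 had 3279.6, 3660.9, 3335.2 and 3494.0, and RA/Fsk cultures 1 to 4 had 2152.2, 1630.0, 1496.5 and 2037.6. The 4 groups followed each other without overlap in the order LD, HD, RA/Fsk, FBS. The means were 472 ± 66.1 (SD, n = 3), 690 ± 64.1 (SD, n = 3), 1829 ± 315 (SD, n = 4) and 3442 ± 172 (SD, n = 4) in that order. Cd9 rose by 2.86 with FBS (SE 0.14, adjusted p = 4.9e-10), which ranked 119 among the rises of all probe sets. It rose by 1.94 with RA/Fsk (SE 0.14, adjusted p = 2.09e-07), rank 66 in that comparison. RA/Fsk lay below FBS, with a difference of -0.92 (SE 0.13, adjusted p = 7.47e-05).

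The Cd9 probe set a gave the same order of group means, with 499.3, 331.2 and 470.5 in LD, 804.7, 703.0 and 682.8 in HD, 2223.2, 3473.0, 3269.0 and 3047.4 in FBS and 1703.3, 1336.1, 1114.1 and 1689.1 in RA/Fsk. Its differences were 2.77 for FBS against LD (SE 0.19, adjusted p = 2.49e-08), 1.74 for RA/Fsk against LD (SE 0.19, adjusted p = 2.23e-05) and -1.02 for RA/Fsk against FBS (SE 0.18, adjusted p = 0.000529). FBS culture 1 was the lowest of its group, and its 2 arrays read 1562.8 and 2883.5. Against HD, Cd9 rose by 2.33 in FBS and 1.41 in RA/Fsk by probe set b (SE 0.14 in both, adjusted p = 5.62e-09 and 1.06e-05), and probe set a stood 4.01-fold and 1.97-fold higher (adjusted p = 1.08e-06 and 0.00336).

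Cd81, the close relative of Cd9 that is also present on astrocytes, had intensities of 920.2, 1099.7 and 1046.4 in LD and 1498.9, 1341.8 and 1492.4 in HD by probe set a. FBS cultures 1 to 4 had 1924.2, 2389.4, 2104.7 and 1875.3, and RA/Fsk cultures 1 to 4 had 1385.2, 1526.4, 1065.1 and 1569.2. The FBS cultures were all above the rest, HD lay above LD without overlap, and RA/Fsk overlapped both, with culture 3 inside the LD range. Cd81 rose by 1.01 with FBS (SE 0.14, adjusted p = 3.72e-05), a 2.02-fold difference. RA/Fsk lay 0.43 above LD (SE 0.14, adjusted p = 0.0758), which did not pass, and -0.59 from FBS (SE 0.13, adjusted p = 0.00392), which did. FBS was 0.51 above HD (SE 0.14, adjusted p = 0.0135), a call that ended without HD culture 2 (0.46, adjusted p = 0.065) and with arrays centred on their medians (0.32, adjusted p = 0.199).

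By its probe set b, Cd81 had 1404.7, 2034.3 and 1692.9 in LD, 2005.8, 2186.0 and 2807.0 in HD, 2789.8, 3534.6, 3316.6 and 3069.9 in FBS and 2360.7, 2633.7, 1677.6 and 2644.8 in RA/Fsk. Here LD and HD overlapped, as did HD and FBS. The rise with FBS against LD was 0.90 (SE 0.18, adjusted p = 0.000906). RA/Fsk against FBS was -0.46 (SE 0.16, adjusted p = 0.06) and FBS against HD was 0.45 (SE 0.18, adjusted p = 0.0838), neither of which passed. RA/Fsk against LD was 0.44 (SE 0.18, adjusted p = 0.153). Without RA/Fsk culture 3, Cd81 passed for RA/Fsk against LD by both probe sets, at 0.55 (adjusted p = 0.0102) by a and 0.59 (adjusted p = 0.0274) by b. Without HD culture 4, probe set b passed for FBS against HD at 0.59 (adjusted p = 0.0419). HD and RA/Fsk differed by -0.07 (SE 0.14, adjusted p = 0.828) by probe set a and by -0.01 (95% interval -0.38 to 0.36, adjusted p = 0.981) by b.

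Cd151, which couples laminin-binding integrins to the tetraspanin network, had intensities of 495.8, 584.6 and 422.2 in LD and 563.1, 627.7 and 597.4 in HD. In FBS cultures 1 to 4 it reached 1542.6, 1457.0, 1669.1 and 1389.1, and in RA/Fsk cultures 1 to 4 it reached 919.5, 774.9, 1175.1 and 825.3. LD and HD overlapped, every RA/Fsk culture lay above both, and every FBS culture lay above RA/Fsk. The means were 501 ± 81.3 (SD, n = 3) in LD, 596 ± 32.3 (SD, n = 3) in HD, 924 ± 178 (SD, n = 4) in RA/Fsk and 1514 ± 121 (SD, n = 4) in FBS. Cd151 rose by 1.59 with FBS (SE 0.15, adjusted p = 6.47e-07) and by 0.87 with RA/Fsk (SE 0.15, adjusted p = 0.00125), and RA/Fsk against FBS was -0.72 (SE 0.14, adjusted p = 0.00109). Against HD it rose by 1.33 in FBS (SE 0.15, adjusted p = 4.69e-06) and by 0.61 in RA/Fsk (SE 0.15, adjusted p = 0.0141). The last call ended without HD culture 1 (0.57, adjusted p = 0.0583), with arrays centred on their medians (0.52, adjusted p = 0.134), with the GAPDH ratio of each culture as a covariate (0.51, adjusted p = 0.0992) and when the 2 groups were fitted alone (0.61, adjusted p = 0.0606).

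Cd82, also called Kai1, had intensities of 171.6, 204.7 and 150.2 in LD and 159.5, 162.8 and 215.4 in HD by probe set b. FBS cultures 1 to 4 had 711.2, 634.9, 676.6 and 664.1, within 31.6 (SD) of a mean of 672. RA/Fsk cultures 1 to 4 had 276.1, 216.0, 635.8 and 178.7. The RA/Fsk cultures did not agree: culture 3 was at the level of FBS, and culture 4 was within the LD and HD ranges. Cd82 rose by 1.91 with FBS against LD (SE 0.30, adjusted p = 0.000112) and by 1.88 against HD (SE 0.30, adjusted p = 0.000155). RA/Fsk lay 0.71 above LD (SE 0.30, 95% interval 0.08 to 1.34, adjusted p = 0.175), which did not pass and became 0.33 without RA/Fsk culture 3. RA/Fsk against FBS was -1.20 (SE 0.28, adjusted p = 0.00478), and -1.58 without that culture.

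Probe set a of Cd82 read 48.0, 70.2 and 21.0 in LD, 55.0, 42.7 and 53.0 in HD, 206.0, 231.4, 166.3 and 182.6 in FBS and 74.2, 43.7, 145.2 and 57.3 in RA/Fsk. Its FBS cultures lay above all others, whereas by probe set b RA/Fsk culture 3 (635.8) was above FBS culture 2 (634.9). RA/Fsk culture 3 was again the highest of its group. The differences were 2.09 for FBS against LD (SE 0.38, adjusted p = 0.000449), 1.98 for FBS against HD (SE 0.38, adjusted p = 0.000792) and -1.35 for RA/Fsk against FBS (SE 0.35, adjusted p = 0.0108). RA/Fsk against LD was 0.73 (SE 0.38, adjusted p = 0.284), which did not pass and ranged from 0.31 without LD culture 4 to 1.08 without LD culture 3. The 2 arrays of HD culture 2 read 12.2 and 73.2 for this probe set, the widest gap between arrays of a culture among the members.

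Cd63, the endosomal member and a binding partner of Timp1, had intensities of 3495.8, 4089.3 and 3816.3 in LD and 3308.6, 3346.0 and 3871.6 in HD. FBS cultures 1 to 4 had 5412.8, 5511.6, 6446.2 and 6603.9, and RA/Fsk cultures 1 to 4 had 6354.2, 5621.6, 7982.3 and 5345.4. The treated cultures all lay above the untreated ones, and the treatments overlapped each other. The means were 3800 ± 297 (SD, n = 3) in LD, 3509 ± 315 (SD, n = 3) in HD, 5994 ± 618 (SD, n = 4) in FBS and 6326 ± 1183 (SD, n = 4) in RA/Fsk. Cd63 rose by 0.65 with FBS (SE 0.14, adjusted p = 0.00253) and by 0.72 with RA/Fsk (SE 0.14, adjusted p = 0.00428) against LD, and by 0.76 (SE 0.14, adjusted p = 0.000704) and 0.84 (SE 0.14, adjusted p = 0.00129) against HD. With arrays centred on their medians, both FBS calls ended, at 0.56 against LD (adjusted p = 0.0538) and 0.57 against HD (adjusted p = 0.0543). Over 21 other settings the FBS difference ran up to 1.07 against LD and 1.16 against HD, and 20 of the 21 passed in each. RA/Fsk against FBS was 0.07 (95% interval -0.21 to 0.35, adjusted p = 0.785), and its sign turned under quantile normalization, to -0.20.

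**Figure D2:**
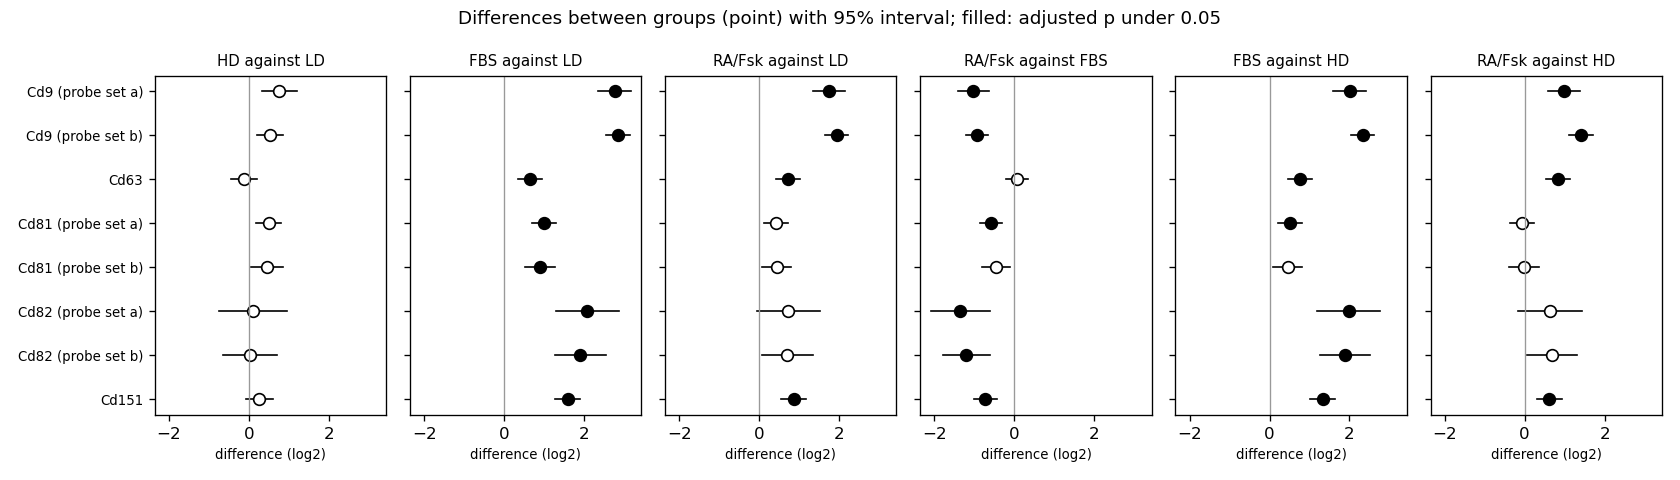
Difference between groups in log2 units (horizontal axis) for each member probe set and comparison, with its 95% interval; filled points have an adjusted p under 0.05. All 8 points are filled for FBS against LD and 0 for HD against LD, and Cd63 lies at 0.07 for RA/Fsk against FBS while the other members lie below 0.

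Between FBS and RA/Fsk, Cd9, Cd82 and Cd151 were lower in RA/Fsk and passed by each of their probe sets. Cd81 was lower in RA/Fsk by both probe sets, with no overlap between the cultures of these groups for either, and passed by probe set a (-0.59, adjusted p = 0.00392) but not by b (-0.46, adjusted p = 0.06). Cd63 did not pass, and its interval of -0.21 to 0.35 includes differences of either sign, so its order between the treatments is not established. A comparison of Cd63 with the other members within cultures was added after the values were seen. It restates the value by which Cd63 was singled out, so it gives no independent test and is not reported.

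In the comparison of the progenitor conditions, HD against LD, 0 of the 8 member probe sets passed, where 0.858% of all probe sets did (0.435% higher and 0.423% lower in HD). Without adjustment, 4 of the 8 had p under 0.05 in limma, and for all probe sets that count was 1209 of 8740. The cultures did not overlap for 3 of the 8, both probe sets of Cd9 and probe set a of Cd81, against 19.7% of all probe sets, and HD was higher in each. Cd9 differed by 0.53 (SE 0.15, adjusted p = 0.119) by probe set b and 0.76 (SE 0.21, adjusted p = 0.102) by probe set a, and Cd81 by 0.50 (SE 0.15, adjusted p = 0.145) and 0.45 (SE 0.19, adjusted p = 0.301). The interval was -0.08 to 0.60 for Cd151, -0.65 to 0.70 for Cd82 by probe set b and -0.44 to 0.21 for Cd63, so differences of these sizes were not excluded. Probe set a of Cd9 passed with arrays centred on their medians (0.87, adjusted p = 0.0314). When each array was counted as a sample, probe set b of Cd9 (0.58, adjusted p = 0.037) and probe set a of Cd81 (0.53, adjusted p = 0.0223) passed, but arrays of a culture are not separate samples.

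The ratio of GAPDH signal at the 3′ end to that at the 5′ end, a measure of RNA quality, was -0.05 to 0.20 log2 in HD, 0.21 to 0.47 in LD, 0.01 to 0.16 in FBS and 0.11 to 0.47 in RA/Fsk. HD and FBS thus lay below LD without overlap. With this ratio as a covariate, the 8 member calls for FBS against LD and the 4 for RA/Fsk against LD were made again, with differences of 2.77 and 1.93 for Cd9 by probe set b.

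**Figure D3:**
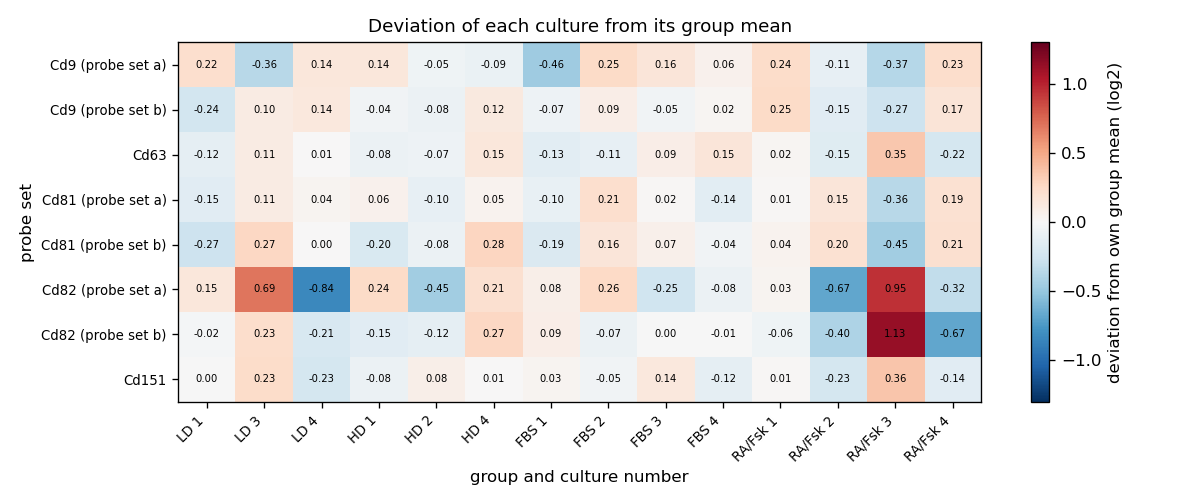
Deviation of each culture (columns) from the mean of its own group, in log2 units, for each member probe set (rows). RA/Fsk culture 3 deviates by 1.13 for Cd82 probe set b and by -0.45 for Cd81 probe set b, the FBS cultures by no more than 0.26 except Cd9 probe set a in culture 1 at -0.46.

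By Dixon's test 0 of the 16 groups of 4 FBS or RA/Fsk cultures held an outlying culture. With 4 cultures this test flags only a gap above 0.829 of the range, so it can miss a culture that stands apart. Within RA/Fsk, culture 3 was at opposite ends of the group for different members. It deviated from its group mean by 1.13 for Cd82 (probe set b), 0.36 for Cd151 and 0.35 for Cd63, and by -0.27 for Cd9 (probe set b) and -0.45 for Cd81 (probe set b). In the same culture the summed intensity of 10 oligodendrocyte lineage markers was 2962, against 4281, 5167 and 4645 in RA/Fsk cultures 1, 2 and 4, and that of 10 neuron markers was 4702, against 3691, 3815 and 3786. Uchl1 supplied most of the neuron sum, and its intensity in RA/Fsk ran from 2035 to 3285 with a median of 2078. The higher neuron sum of culture 3 was therefore set largely by 1 gene and does not describe the other neuron markers. The part of these markers in the deviations was not tested. Across the 14 cultures, with each gene centred on its own mean, the closest pair of members by root mean square difference was Cd82 and Cd151 at 0.35, followed by Cd63 and Cd151 at 0.39. The farthest were Cd9 and Cd81 at 0.87 and Cd9 and Cd63 at 0.84. These distances share the 4 groups and their scaling and grow with the size of a gene's own differences.

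By the same measure, over 14 cultures and 2691 other genes with a mean at or above the median, the gene most like Cd9 was Prnp, the prion protein, at 0.19, where the spread of Cd9 about its own mean was 1.14. Serinc3 followed at 0.34 and Slc12a4, a potassium-chloride cotransporter, at 0.36. Prnp differed by 2.66 for FBS against LD and 1.78 for RA/Fsk against LD, beside 2.86 and 1.94 for Cd9. Cd63 was most like Prr13 (0.11), Atp6v1f (0.15), a subunit of the vacuolar proton pump, and Tpst2 (0.18), a tyrosine sulfotransferase. Cd81 was most like Cpt2 (0.13) and Decr1 (0.18), enzymes of mitochondrial fatty acid oxidation, and Adcy5 (0.18), an adenylate cyclase. The genes nearest to Cd82 were B2m (0.22), the light chain of class I histocompatibility molecules, Ctsl (0.30), a lysosomal protease, and App (0.31). Those nearest to Cd151 were Lgals1 (0.16), a galectin, Map1lc3a (0.18), an autophagosome protein, and Ctsd (0.20), a lysosomal protease. These are distances over cultures that share groups, given with no test.

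Of 26 other tetraspanins listed, 7 were measured (Tspan3, Tspan8, Tspan17, Cd37, Cd53, Prph2 and Rom1). Tspan17 alone passed, and it did so in 4 comparisons. Its median intensity was 195 in LD, 179 in HD, 629 in FBS and 706 in RA/Fsk. Tspan17 rose by 1.46 with FBS (SE 0.21, adjusted p = 5.41e-05) and by 1.75 with RA/Fsk (SE 0.21, adjusted p = 5.46e-05) against LD, and by 1.54 and 1.84 against HD. In limma, 0 of the 7 passed for RA/Fsk against FBS, 0 of them with an unadjusted p under 0.05, and 0 for HD against LD, 1 of them with an unadjusted p under 0.05. Tspan3, which did not pass, was 0.43 above LD in FBS (adjusted p = 0.0612) and 0.53 above LD in RA/Fsk (adjusted p = 0.0512). Cd37 and Cd53 are also leukocyte markers, and neither passed in any comparison. The median difference of the 7 was 0.07 for FBS against LD and 0.53 for RA/Fsk against LD. Several of the 7 gave little signal, with intensities of 0.7 to 2.4 for Tspan8, 1.5 to 21.9 for Cd53 and 3.4 to 26.4 for Prph2 over all cultures, where the pseudocount of 4.99 limits the difference that can be seen, so these medians were not compared with those of the 5 members.

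Of 22 integrin chains listed, 10 were measured, and 4 rose with FBS against LD. Itga1, the alpha chain of a collagen receptor, rose by 3.26 (adjusted p = 1.32e-08), Itga7, that of a laminin receptor, by 1.32 (adjusted p = 9.49e-05), the common beta chain Itgb1 by 0.99 (adjusted p = 0.000567) and Itgav by 0.90 (adjusted p = 0.0178). With RA/Fsk against LD 0 of the 10 passed in limma, although 3 had an unadjusted p under 0.05. For RA/Fsk against FBS, Itgb3 rose by 1.35 (adjusted p = 0.00663) and 3 fell: Itga1 by 3.04, Itga7 by 0.76 and Itgb1 by 0.64. Against HD, Itga1 and Itga7 rose in FBS and Itga7 rose in RA/Fsk, and for HD against LD 0 of the 10 passed and 3 had an unadjusted p under 0.05. The median of the 10 was 0.27 for FBS against LD and 0.43 for RA/Fsk against LD. Cd151, which binds the laminin-binding members of this family, rose with both treatments. Itga7 did not pass for RA/Fsk against LD in limma (0.56, adjusted p = 0.108), and Itga3 and Itga6 were among the listed chains not measured.

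Other known partners of tetraspanins were represented by 28 of 34 listed genes, and Igsf8, a partner shared by Cd9 and Cd81, was not measured. With FBS against LD 8 rose and 1 fell, led by Cd44, the hyaluronan receptor, at 4.57 (adjusted p = 2.29e-10), Timp1, the secreted protein that binds Cd63, at 1.10 (adjusted p = 1.24e-06), and Hbegf, a growth factor whose precursor binds Cd9, at 1.54 (adjusted p = 5.1e-05). Ezr, which links membrane proteins to actin, fell by 1.48. With RA/Fsk against LD 4 rose and 2 fell. The rises were Prkca, a protein kinase C that binds tetraspanins, at 2.80 (adjusted p = 5.46e-05), Tgfa, a growth factor, at 1.47 (adjusted p = 0.000734), Timp1 at 0.62 (adjusted p = 0.00157) and Cd47 at 0.64, and the falls were Ezr by 1.02 and Ptgfrn, a direct partner of Cd9 and Cd81, by 0.72. For RA/Fsk against FBS 2 rose and 8 fell, led by Cd44, which fell by 4.39, Tgfa, which rose by 1.98, and Ptgfrn, which fell by 1.05. FBS against HD gave 6 rises and 1 fall, RA/Fsk against HD 4 rises and 2 falls, and HD against LD 1 rise, Prkca at 1.97 (adjusted p = 0.0131). The median was 0.30 for FBS against LD and 0.19 for RA/Fsk against LD.

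Late endosomes, lysosomes and exosomes, where Cd63 resides, were represented by 23 of 39 listed genes, and 11 rose and 1 fell with FBS against LD. Anxa5, an annexin, rose by 3.72 (adjusted p = 3.79e-11), and the lysosomal proteases Ctsl and Ctsb rose by 2.21 (adjusted p = 1.53e-07) and 1.59 (adjusted p = 2.77e-06). With RA/Fsk against LD 8 rose and 1 fell, led by Anxa5 at 1.22 (adjusted p = 5.41e-05), Psap, the precursor of saposins, at 0.77 (adjusted p = 0.000398) and Ctsl at 1.21 (adjusted p = 0.0004). The gene that fell in both was Anxa6, with differences of -2.12 and -1.37. For RA/Fsk against FBS 1 rose and 8 fell and the largest call was Anxa5 at -2.51, where Cd63 was at 0.07. FBS against HD gave 11 rises and 1 fall, RA/Fsk against HD 5 rises and 2 falls, and for HD against LD 0 of 23 passed in limma and 3 had an unadjusted p under 0.05. The median was 0.60 for FBS against LD, 0.27 for RA/Fsk against LD, and between the treatments it was -0.29. Of all probe sets, 13.2% rose and 12.3% fell for FBS against LD, 4.71% and 3.54% for RA/Fsk against LD. These shares were 8.27% and 10.1% for RA/Fsk against FBS, and 11.3% and 9.7% for FBS against HD. They were 4.85% and 5.32% for RA/Fsk against HD, and 0.435% and 0.423% for HD against LD. The lists were chosen with earlier results of these data known, so their counts and those of the tetraspanins are descriptions.

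**Figure D4:**
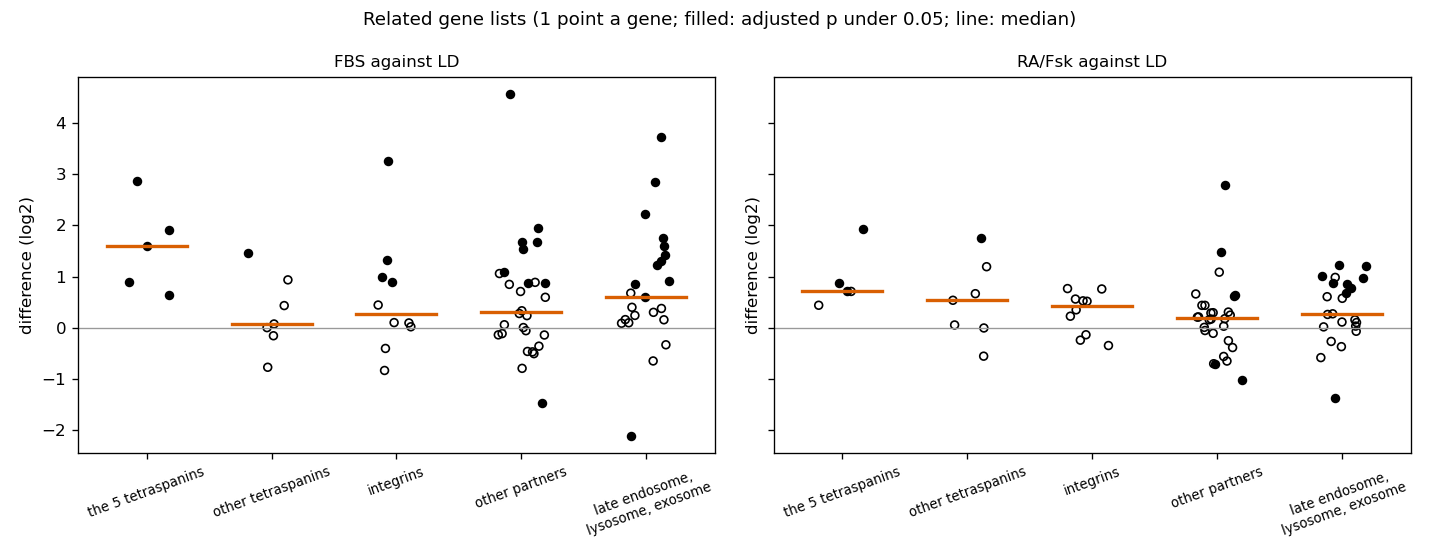
Difference from LD in log2 units (vertical axis) for FBS (left) and RA/Fsk (right), 1 point per gene by its brightest probe set, with filled points at an adjusted p under 0.05 and a line at each list's median. The 5 tetraspanins have medians of 1.59 and 0.72. Those of the 7 other tetraspanins, 0.07 and 0.53, were not compared with them, since several of the 7 gave little signal.

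Markers of other cell types moved with some of the groups in which the tetraspanins were high. Summed intensities of 8 measured astrocyte markers of 10 were 2050 to 2624 in LD, 3820 to 5020 in HD, 6008 to 8017 in FBS and 8005 to 9357 in RA/Fsk, and Gfap was not measured under a symbol of its own. S100b, Glul and Aldoc, which carry most of the sum, rose against LD in both treatments, and Slc1a3 rose in FBS. The other 4 did not pass in either: against LD in FBS, Aqp4 was at -0.62, Slc1a2 at -0.36, Aldh1l1 at -0.53 and Gja1 at 0.12. Cd9 was lowest in LD, as this sum was, but it was higher in FBS than in RA/Fsk, unlike the sum. The markers that passed against LD did not share 1 order between the treatments. Median intensities in FBS and RA/Fsk were 2609 and 4177 for Aldoc and 1902 and 2339 for S100b. For Glul they were 2055 and 1466, and for Slc1a3 360 and 97.2, higher in FBS as Cd9 was. For RA/Fsk against FBS, 1 of the 8 rose and 1 fell. Oligodendrocyte lineage markers, 10 of 15, summed to 2315 to 3113 in LD, 1793 to 2257 in FBS and 2962 to 5167 in RA/Fsk. Mbp rose in both treatments, Cnp rose in RA/Fsk, and Pdgfra and Ugt8 fell in FBS. Neuron markers, 10 of 15, summed to 4395 to 4595 in LD, 4293 to 5015 in HD and 3611 to 3912 in FBS, which lay below LD without overlap. Uchl1 carried most of this sum, at 2702 to 2859 in LD and 2080 to 2241 in FBS, and did not pass for FBS against LD. Tubb3, Rbfox3, Stmn2, Elavl3 and Dcx were not measured under a symbol of their own. In FBS against LD, Nefm rose by 2.26 and Elavl4 fell by 0.49. In RA/Fsk, the cells labelled as neurons, the sum was 3691 to 4702, and against LD 0 of the 10 rose and Gap43 fell by 0.88. Neural progenitor markers, 6 of 9, summed to 5189 to 7407 in LD, 6491 to 6889 in FBS and 4234 to 6040 in RA/Fsk. Vim carried most of this sum, at 3225.6 to 4722.6 in LD, 4728.5 to 4949.3 in FBS and 2250.4 to 3409.5 in RA/Fsk. Against LD, Fabp7, Notch1 and Hes5 fell in FBS, and 0 of the 6 passed in RA/Fsk.

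Fibroblast, mural and endothelial markers, 12 of 15, summed to 409 to 524 in LD, 380 to 497 in HD, 700 to 1140 in FBS and 361 to 588 in RA/Fsk. Of these Tagln, a smooth muscle actin-binding protein, rose by 3.45 in FBS against LD, and 0 of the other 11 passed. Microglia and leukocyte markers, 11 of 15, summed to 376 to 508 in LD, 308 to 388 in HD, 363 to 465 in FBS and 322 to 515 in RA/Fsk. In limma 0 of these 11 passed in any comparison, and at most 2 had an unadjusted p under 0.05. The part of these cell types in the tetraspanin differences was not tested.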

How the data were processed

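RNA of 14 cultures was measured on 20 arrays. The deposited table holds linear intensity values of 8799 probe sets, with no background correction, summary method or detection call given in the sources used here. The arrays look scaled, since the mean of an array after leaving out 2% at each end was 200.3 to 200.5, while medians ran from 41 to 57.5. The 59 control probe sets were left out, which left 8740. A single symbol was given for 7006 of them, several for 308 and none for 1426, and symbols came from the platform's annotation, of whose gene identifiers 6994 were found in RefSeq for GRCr8. The number of arrays limits the precision.

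Intensities were taken as log2(intensity + 4.99), 10% of the median positive value of 49.9, and arrays of a culture, which correlated at 0.951 to 0.975, were averaged. One model over the 4 groups was fitted in R 4.3.3 with limma 3.58.1 (lmFit, eBayes with an intensity trend, 10 residual degrees of freedom, prior 6.13), with 6 comparisons and Benjamini-Hochberg adjustment over 8740 probe sets. The fit was tested on simulated data. A gene was summarised by its probe set with the highest mean.

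The same numbers recur in several groups. Deviations from the group means of LD and RA/Fsk cultures with the same number correlated at 0.33, 0.16 and 0.11 for numbers 1, 3 and 4. HD and LD gave 0.14 and 0.09 for numbers 1 and 4. Correlations between cultures with different numbers were not computed beside them, so whether the numbers pair any groups is not established. For other groups at least 1 correlation was under 0.1.

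The rule for naming took all member probe sets, up to 3 genes per list and comparison with the smallest adjusted p, and the 3 genes most like each member. Genes outside this rule, given to complete a short count or beside a member, were picked with their values known. The members and lists were chosen with earlier results of these data known. Alternatives covered scaling, pseudocount, dim probe sets, spread estimate, the GAPDH ratio, the replicate block, arrays as samples and each culture left out.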

Additional observations from a re-analysis of the deposited data

How the results depend on the processing

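The 48 member results in the 6 comparisons, 1 per probe set and comparison, were recomputed under other settings, which gave 960 values. Direction and side of the threshold were kept in 923 of them, which includes results that passed in neither fit. These values come from the same cultures and are not independent of each other. Cd9, Cd81, Cd82 and Cd151 passed by each of their probe sets under all 21 settings for FBS against LD, and Cd63 under 20 of the 21. Cd9 passed in every comparison except HD against LD under each setting tried. With arrays centred on their medians, which moved the median of all probe sets from 0.03 to -0.16 for FBS against HD, from 0.06 to 0.16 for RA/Fsk against FBS and from -0.08 to 0.02 for HD against LD, Cd63 was 0.56 for FBS against LD and 0.57 for FBS against HD, Cd81 (probe set a) 0.32 for FBS against HD, Cd151 0.52 for RA/Fsk against HD, and Cd9 (probe set a) 0.87 for HD against LD, so that 1 member in place of 0 passed there. With the GAPDH ratio as a covariate, Cd63 was -0.060 for RA/Fsk against FBS and 0.032 for HD against LD, and Cd151 was 0.51 for RA/Fsk against HD. Quantile normalization gave Cd63 -0.20 and Cd81 (probe set b) -0.69 for RA/Fsk against FBS, and Cd81 (probe set b) 0.77 for FBS against HD and 0.079 for RA/Fsk against HD. With each array as a sample, 2 members passed for HD against LD, Cd9 (probe set b) at 0.58 and Cd81 (probe set a) at 0.53, and Cd81 passed at 0.45 for RA/Fsk against LD (probe set a), and by probe set b at 0.44 for FBS against HD and -0.45 for RA/Fsk against FBS. With the dimmest 25% or 50% of probe sets left out, Cd81 (probe set b) passed at -0.46 for RA/Fsk against FBS (adjusted p = 0.0449 and 0.0377), and with 50% left out probe set a passed at 0.43 for RA/Fsk against LD. With only the 2 groups compared, Cd81 (probe set b) passed at 0.45 for FBS against HD and Cd151 did not at 0.61 for RA/Fsk against HD. With FBS culture 3 taken from array 3r alone, Cd63 was -0.0015 for RA/Fsk against FBS. The replicate block changed no member call: Cd9 (probe set b) was 1.95 for RA/Fsk against LD, and the sign turned for Cd81 (probe set b), RA/Fsk against HD, at 0.0062.

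With each culture left out in turn, Cd151 ranged from 0.49 to 0.69 for RA/Fsk against HD, and Cd63 from -0.044 to 0.15 for RA/Fsk against FBS. Cd81 (probe set a) ranged from 0.44 to 0.56 for FBS against HD, -0.14 to 0.048 for RA/Fsk against HD and 0.35 to 0.55 for RA/Fsk against LD. Cd81 (probe set b) ranged from 0.35 to 0.59, -0.11 to 0.14 and 0.30 to 0.59 in the same order. For HD against LD, Cd82 ranged from -0.31 to 0.45 (probe set a) and -0.11 to 0.14 (probe set b). The cause of these changes was not tested. Over all probe sets, 75 passed for HD against LD, 252 with each array as a sample and 23 without HD culture 4, while 889 passed for RA/Fsk against HD and 502 when fitted alone, and 721 for RA/Fsk against LD and 362 when fitted alone.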
